A study of Mus musculus with 30 samples.

Results

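Proton pump and acid transport genes of mouse osteoclasts were described here in 30 poly(A)-selected RNA libraries. The 33 genes were listed by name: 21 subunit genes of the vacuolar H+-ATPase (V-ATPase), its 2 accessory proteins, 4 CLC chloride-proton exchangers with the Clcn7 partner Ostm1, the carbonic anhydrase Car2, the anion exchanger Slc4a2, the trafficking genes Snx10 and Plekhm1, and Acp5. All 33 were found by symbol among the 50686 genes of each count file. After a filter on low counts 29 of the 33 were tested, in one fit over 15310 genes.

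An osteoclast dissolves bone mineral by secreting acid into a sealed space under its ruffled border. Carbonic anhydrase II, the product of Car2, supplies protons and bicarbonate, the V-ATPase pumps the protons outwards, the Clcn7 exchanger with its subunit Ostm1 carries chloride, and the Slc4a2 exchanger moves bicarbonate out of the opposite face. The pump has a membrane ring, V0, and a cytoplasmic ATP-splitting head, V1, and several of its subunits exist as ubiquitous and as cell-type-restricted isoforms. The a3 isoform, encoded by Tcirg1, and the d2 isoform, encoded by Atp6v0d2, are the ones known for the osteoclast. Loss of TCIRG1, CLCN7, OSTM1, SNX10, PLEKHM1 or CA2 function causes osteopetrosis in humans.

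The cultures were bone marrow macrophages of C57BL/6J mice, all given 25 ng/ml M-CSF and 100 ng/ml RANKL in medium with 10% serum. Terc-/- mice (KO), which lack the RNA template of telomerase, and wild-type mice (WT) were compared, and the labels give no driver, clone or pooling and no count of animals. Cells were taken when large multinucleated cells had appeared or, for WT at 6 and 20 months, also after 2 days. The 10 groups of 3 libraries were multinucleated KO at 1 and 6 months, a further set of multinucleated KO at the same ages whose titles begin with 519, multinucleated WT at 1 month with the title tag D1, multinucleated WT at 1, 6 and 20 months, and 2-day WT at 6 and 20 months. The labels do not say what 519 and D1 mean, nor whether replicates came from separate mice, so the p-values measure only the spread between these libraries. Groups with neither tag are called unprefixed.

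Libraries held 4269798 to 12987993 counts in set 519 and 13182063 to 25147975 in the other 24. Terc itself could not check the genotype labels, with 0 counts in all 12 KO libraries and 0 to 2 counts in the 18 WT libraries. All 10 osteoclast markers, Ctsk, Mmp9 and Calcr among them, had counts in every group, and their summed level ran from 626 to 659 CPM (counts scaled to library size, per 1000000) in unprefixed 1-month KO to 35193 to 36994 CPM in set D1. It was 1831 to 1986 CPM in unprefixed 1-month WT and 1991 to 2185 CPM in unprefixed 6-month KO. In 2-day WT it was 2922 to 3401 CPM at 6 and 3806 to 3876 CPM at 20 months. Unprefixed 1-month KO, 1-month WT and 6-month KO, multinucleated by their labels, were thus below the 2-day cultures in this sum. Some groups stood apart. The 10 macrophage markers summed to 44686 to 47684 CPM in unprefixed 1-month KO, and to 19090.5 to 32326 CPM in the other KO and 1-month groups, but to 8733 to 11164 CPM in WT at 6 and 20 months. The 8 stromal markers summed to 485 to 562 CPM in set 519 at 1 month and to 3620.5 to 3971 CPM in 2-day WT at 6 months. Set D1 had 816 to 908 CPM of Xist and no count of Ddx3y, Eif2s3y, Kdm5d or Uty, while the other 27 libraries had at most 0.454 CPM of Xist, so by these transcripts set D1 differed in sex from the rest. In bulk RNA, fewer osteoclasts and less RNA per osteoclast cannot be told apart.

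5 kinds of short motif were searched on both strands of the promoters, as background to genes that moved together. Windows of 300 bases, 250 before and 50 after a RefSeq transcription start on GRCm38.p6, were held for 26 members. The letters TCACGTGA, the E-box core CACGTG with the flanks of the CLEAR element bound by the TFEB and MITF family in lysosomal genes, were in the windows of 5 of the 26 members, 19.2%, against 1.12% of 27025 genes. 4 of those windows and that of Acp5 are shown 5′ to 3′ in gene orientation, because their genes span the range of responses to maturation described next; capitals mark every motif found.
Clcn7, chr17:25133141-25133440, plus strand: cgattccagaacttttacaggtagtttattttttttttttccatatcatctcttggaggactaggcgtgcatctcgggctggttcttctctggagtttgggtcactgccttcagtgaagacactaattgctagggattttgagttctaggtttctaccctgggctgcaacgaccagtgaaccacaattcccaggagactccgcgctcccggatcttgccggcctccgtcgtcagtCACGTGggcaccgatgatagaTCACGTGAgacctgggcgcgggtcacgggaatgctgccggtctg
Atp6v1a, chr16:44139210-44139509, minus strand: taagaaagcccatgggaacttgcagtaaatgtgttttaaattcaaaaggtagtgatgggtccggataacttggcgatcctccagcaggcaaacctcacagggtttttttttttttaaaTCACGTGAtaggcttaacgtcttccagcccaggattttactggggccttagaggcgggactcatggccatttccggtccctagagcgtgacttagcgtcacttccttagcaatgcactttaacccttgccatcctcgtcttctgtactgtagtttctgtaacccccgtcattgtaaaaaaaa
Atp6v0d1, chr8:105566015-105566314, minus strand: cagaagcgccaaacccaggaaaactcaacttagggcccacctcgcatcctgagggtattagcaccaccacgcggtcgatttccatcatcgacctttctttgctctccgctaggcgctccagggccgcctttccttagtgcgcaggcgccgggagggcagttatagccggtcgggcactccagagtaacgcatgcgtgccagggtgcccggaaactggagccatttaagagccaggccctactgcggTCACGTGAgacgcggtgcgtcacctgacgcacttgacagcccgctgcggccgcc
Clcn6, chr4:148038764-148039063, minus strand: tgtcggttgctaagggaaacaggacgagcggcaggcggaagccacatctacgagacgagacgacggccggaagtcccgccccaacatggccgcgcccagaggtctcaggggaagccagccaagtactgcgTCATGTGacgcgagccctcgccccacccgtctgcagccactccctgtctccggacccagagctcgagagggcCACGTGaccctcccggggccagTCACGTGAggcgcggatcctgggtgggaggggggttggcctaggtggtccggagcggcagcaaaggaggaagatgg
Acp5, chr9:22130549-22130848, minus strand: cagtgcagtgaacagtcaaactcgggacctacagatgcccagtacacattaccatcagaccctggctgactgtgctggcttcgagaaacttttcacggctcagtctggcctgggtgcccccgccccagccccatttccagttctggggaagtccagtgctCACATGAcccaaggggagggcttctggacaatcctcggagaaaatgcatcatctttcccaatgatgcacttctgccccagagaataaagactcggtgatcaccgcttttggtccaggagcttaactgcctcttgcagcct
In Clcn7 the letters TCACGTGA begin at base 7 after the start and a further CACGTG lies 15 bases before it. Atp6v1a holds them 132 bases upstream and Atp6v0d1 4 bases upstream. Clcn6 has them 26 bases upstream, with another CACGTG and a TCATGTG. Acp5 has TCATGTG, the core of an M-box, on its opposite strand 90 bases upstream. Over all members CACGTG was in 23.1% against 8.09% of genes, with every TCACGTGA counted in it, and TCATGTG in 19.2% against 4.31%. TGACTCA, the AP-1 site, was in 1 member, Snx10, 3.8% against 5.95%. GAGGAAGT, a PU.1 site, was in 0 members against 3.69% of genes. A match says only that the letters are present.

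4 members were hardly transcribed. Atp6v0a4, Atp6v1b1 and Atp6v1c2, the a4, B1 and C2 isoforms known from kidney and other epithelia, had 24, 10 and 28 counts over all 30 libraries, and Atp6v0e2 had 127. The highest single value among them was 0.677 CPM and the highest count 12, both of Atp6v0e2. A count of 0 allows up to 3 counts, which is 0.703 CPM in the shallowest and 0.119 CPM in the deepest library. Atp6v1g2, the G2 isoform known from neurons, reached 4.72 CPM at most as a group mean. Of the restricted isoforms, Tcirg1 and Atp6v0d2 were thus the 2 with high levels, at 674 to 2576 CPM and 135 to 1230.0 CPM over the group means.

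The span of group means sorted the 29 tested members. Car2 had the largest, 188 CPM in set D1 and 1.49 CPM in unprefixed 1-month KO, 127-fold. Acp5, tartrate-resistant acid phosphatase, spanned 94.6-fold between the same groups, with 8512 and 90.0 CPM, and Atp6v0d2 spanned 9.09-fold. Slc4a2 spanned 5.09-fold, Snx10 4.46-fold, Clcn7 4.22-fold and Tcirg1 3.82-fold. At the other end Atp6v0a2, the a2 isoform of endosomes and Golgi, spanned 1.24-fold, Clcn3 1.39-fold and Clcn6 1.41-fold. The 14 ubiquitous subunit isoforms spanned 1.24-fold to 4.32-fold, with a median of 3.02-fold.

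**Figure D1:**
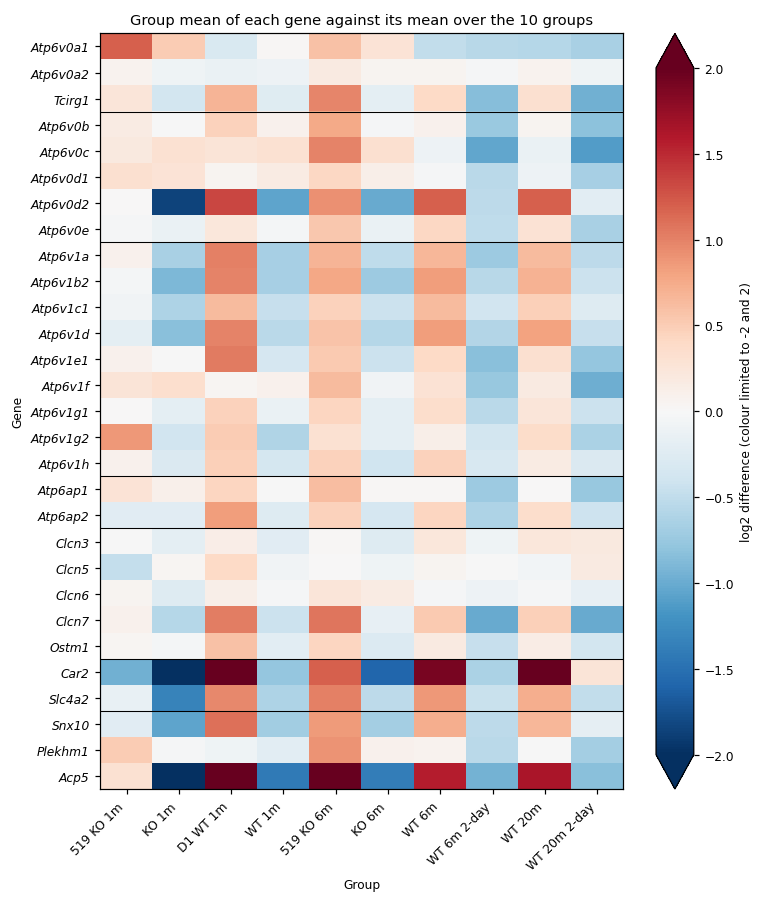
Colour shows the log2 difference of each tested gene's group mean CPM from its mean over the 10 groups, with genes in rows by role and groups in columns. Car2, Acp5 and Atp6v0d2 are darkest blue in unprefixed 1-month KO. They are red in set D1, in set 519 KO at 6 months and in multinucleated WT at 6 and 20 months. Atp6v0a2 is pale across the row.

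**Figure D2:**
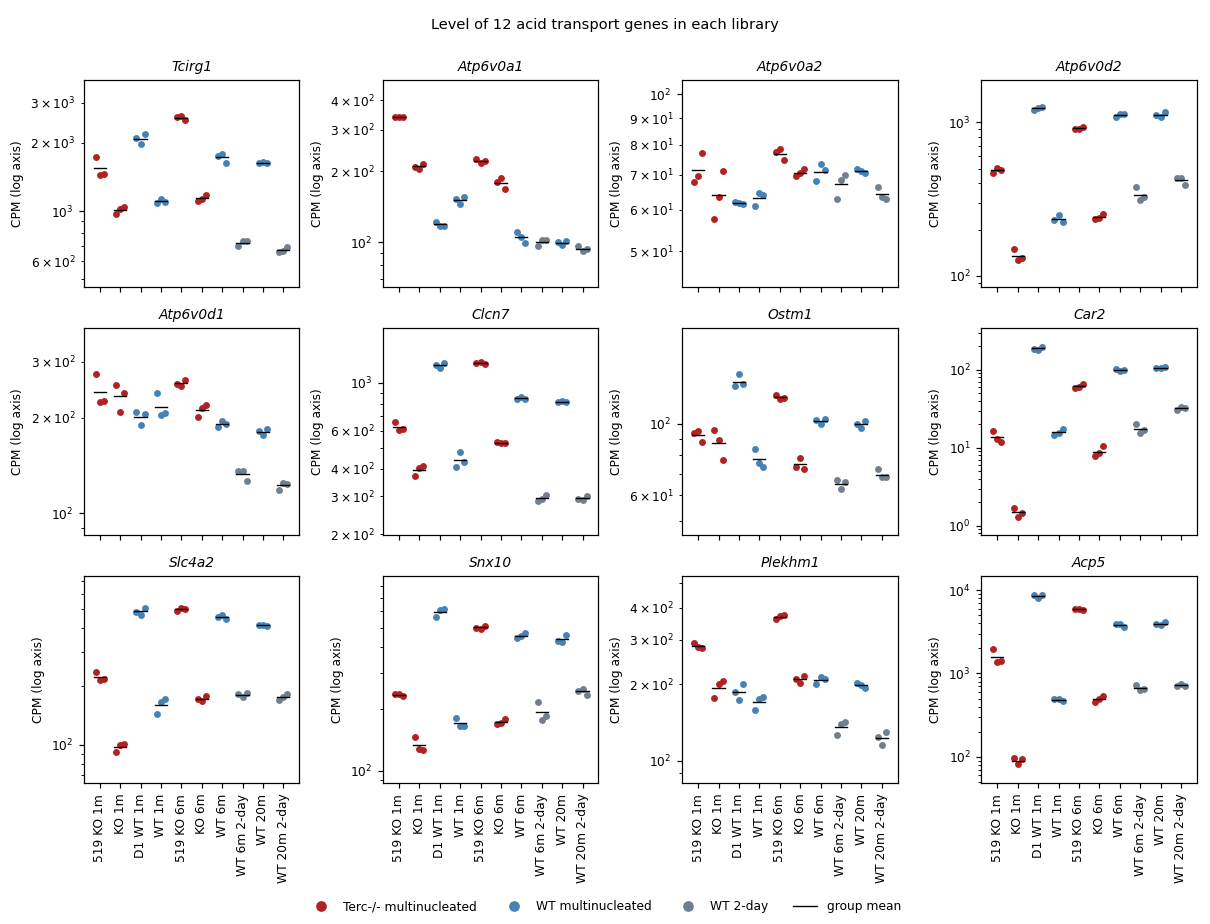
Each point is 1 library and each bar a group mean, in CPM on a log axis, for 12 genes over the 10 groups (m, months). Acp5 lies between 81.4 and 8738 CPM, Atp6v0a1 is highest in the KO groups, and Atp6v0a2 stays within a narrow band.

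Maturation was read by setting multinucleated WT cultures against 2-day WT cultures of the same age. Most of the pump rose together: at 6 months 24 of 29 tested members were higher and 0 lower (edgeR quasi-likelihood test, Benjamini-Hochberg adjusted p under 0.05), where 50.8% of all 15310 genes passed, and at 20 months 25 were higher and 1 lower, against 52.3% of all genes. The median log2 fold change of the tested members was 0.94 at 6 months and 0.88 at 20 months, where that of all genes was -0.01 and 0.00. Summed over all V-ATPase subunits, the level was 10519.7 ± 140.2 CPM in multinucleated and 4495 ± 90.3 CPM in 2-day cultures at 6 months, and 9932 ± 93.2 and 4704 ± 10.8 CPM at 20 months (SD, n = 3 each). Over the same contrast the summed stromal markers were 1283 to 1669 CPM in multinucleated and 3620.5 to 3971 CPM in 2-day cultures at 6 months, and 2538 to 2940.5 and 3008 to 3199 CPM at 20 months. All 10 osteoclast markers rose at both ages. Their sum was 16391 to 17837 CPM in multinucleated and 2922 to 3401 CPM in 2-day cultures at 6 months. At 20 months it was 18483 to 19916 and 3806 to 3876 CPM. The part of either marker list in the result was not tested.

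Among the a subunits, which hold the proton path of V0, the osteoclast isoform passed at both ages and a1 at neither. Tcirg1 had 1750.3, 1787 and 1632 CPM in multinucleated libraries at 6 months, against 701, 736 and 741 CPM in 2-day libraries. At 20 months it had 1634, 1637 and 1628 CPM, against 660.3, 669 and 693 CPM. No value overlapped, and the log2 fold change was 1.25 (SE 0.05) at 6 and 1.28 (SE 0.05) at 20 months (edgeR adjusted p = 8.2e-20 and 1.1e-19). Atp6v0a1, the a1 isoform known from neurons, had 110.4, 105 and 99.7 CPM in multinucleated and 96.8, 102 and 102 CPM in 2-day libraries at 6 months, and 99.8, 97.0 and 102 against 96.0, 91.8 and 93.7 CPM at 20 months. It did not pass at either age, with log2 fold changes of 0.06 (SE 0.05) and 0.09 (SE 0.05). Atp6v0a2 had 68.2, 73.3 and 71.6 CPM in multinucleated and 63.0, 68.4 and 70.0 CPM in 2-day libraries at 6 months, and 71.8, 71.2 and 70.5 against 66.5, 63.5 and 62.9 CPM at 20 months. Its log2 fold change was 0.08 (SE 0.06) at 6 months, which did not pass, and 0.15 (SE 0.06) at 20 months, which passed. The 20-month call held without 2-day replicate 1 and was lost without each of the other libraries, at 0.13 to 0.15. It was also lost with RLE size factors (0.12), with no filter (0.18), with the replicate block and by DESeq2 (0.13).

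In the rest of V0 all 5 tested members rose at both ages, where 50.8% of all genes passed at 6 and 52.3% at 20 months. Atp6v0d2 had 1081, 1130.2 and 1136 CPM in multinucleated libraries at 6 months, against 378, 311 and 324 CPM in 2-day libraries, and 1108, 1086 and 1159 against 433, 432 and 392 CPM at 20 months. All multinucleated values lay above all 2-day values, with log2 fold changes of 1.72 (SE 0.06) and 1.42 (SE 0.06). Its ubiquitous counterpart Atp6v0d1 had 187, 196 and 191 CPM in multinucleated and 136, 136 and 126 CPM in 2-day libraries at 6 months, and 181, 176 and 184 against 119, 125 and 124 CPM at 20 months. It too was separated, with the smaller log2 fold changes of 0.53 and 0.56. The proteolipid genes of the ring, Atp6v0c and Atp6v0b, rose by 0.94 and 0.83 on the log2 scale at 6 months, and the small subunit gene Atp6v0e by 0.93. Of the exon bases of Atp6v0c, 27.4% also belong to another gene on its strand, and of those of Atp6v0b 11.8% to a gene on the other strand, so the counting could have divided or lost reads of both.

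The V1 head moved almost as a block. At 6 months 8 of its 9 tested members rose, by 0.78 to 1.42 on the log2 scale, against 50.8% of all genes passing. At 20 months all 9 rose, by 0.46 to 1.27, against 52.3% of all genes. Atp6v1a, the catalytic A subunit, averaged 1821 ± 34.0 CPM in multinucleated and 693 ± 12.2 CPM in 2-day cultures at 6 months, and Atp6v1b2, the B2 subunit, 2343 ± 44.4 and 894 ± 19.3 CPM (SD, n = 3 each). The exception at 6 months was the scarce Atp6v1g2, with 2.79 ± 0.632 CPM in multinucleated and 2.01 ± 0.405 CPM in 2-day cultures and a log2 fold change of 0.46 (SE 0.22). Of the accessory genes, Atp6ap1 rose by 0.75 and Atp6ap2, also known as the prorenin receptor, by 1.03 at 6 months, and both rose again at 20 months.

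Chloride exchangers separated sharply from each other. Clcn7 had 839.6, 862 and 841 CPM in multinucleated libraries at 6 months, against 284, 291 and 302 CPM in 2-day libraries, and 814, 824 and 815 against 292, 288 and 299.8 CPM at 20 months. The groups did not overlap, and the log2 fold changes were 1.53 (SE 0.05) and 1.48 (SE 0.05). Ostm1 had 103, 100.1 and 103 CPM in multinucleated and 66.9, 62.8 and 65.9 CPM in 2-day libraries at 6 months, and 99.8, 96.9 and 102 against 72.4, 68.4 and 68.2 CPM at 20 months. It also rose, by 0.65 and 0.52. The endosomal exchanger genes were close to flat: Clcn3 rose by 0.31 at 6 months and had 0.03 at 20 months, which did not pass, and Clcn6 had 0.09 and 0.14, neither of which passed. Clcn5 had 42.3, 44.1 and 45.5 CPM in multinucleated libraries at 20 months, against 57.5, 46.7 and 51.7 CPM in 2-day libraries, and was the 1 member to fall, with a log2 fold change of -0.24 (SE 0.09). That call was lost without 2-day replicate 1 or 3 or multinucleated replicate 1 or 2, at -0.24 to -0.17, and with upper quartile scaling (-0.21). Clcn7 and Clcn6 both carry TCACGTGA in the windows printed above, and differed in response.

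Car2, Slc4a2, Acp5 and the trafficking genes rose too. Car2 had 104, 97.9 and 99.9 CPM in multinucleated libraries at 6 months, against 20.1, 15.4 and 16.7 CPM in 2-day libraries, and 105, 106 and 109.7 against 30.6, 33.8 and 32.6 CPM at 20 months. Its log2 fold changes were 2.53 (SE 0.08) and 1.72 (SE 0.08). Slc4a2 had 453, 464 and 447 CPM in multinucleated and 184, 177 and 185 CPM in 2-day libraries at 6 months, and 414, 413 and 408 against 169, 177 and 184 CPM at 20 months. Both of these genes were separated at both ages, Slc4a2 with log2 fold changes of 1.32 and 1.22; 13.7% of its exon bases overlap genes on the other strand. Acp5 had 3877, 3921 and 3602 CPM in multinucleated libraries at 6 months, against 722, 633 and 657 CPM in 2-day libraries, and 3955, 3851 and 4114 against 713, 744 and 702 CPM at 20 months. The log2 fold changes of Acp5 were 2.50 (SE 0.08) and 2.46 (SE 0.08). Snx10, a sorting nexin needed for ruffled border formation, had 443, 454 and 469.7 CPM in multinucleated and 217, 178 and 185 CPM in 2-day libraries at 6 months, and 431, 424 and 458 against 246, 251 and 235 CPM at 20 months. Plekhm1, a lysosome-docking adaptor, had 202, 214 and 211 CPM in multinucleated and 126, 139.6 and 142 CPM in 2-day libraries at 6 months, and 202, 199 and 194 against 125, 116 and 129.6 CPM at 20 months. Neither gene's groups overlapped, and the log2 fold changes were 1.24 and 0.84 for Snx10 and 0.62 and 0.68 for Plekhm1.

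**Figure D3:**
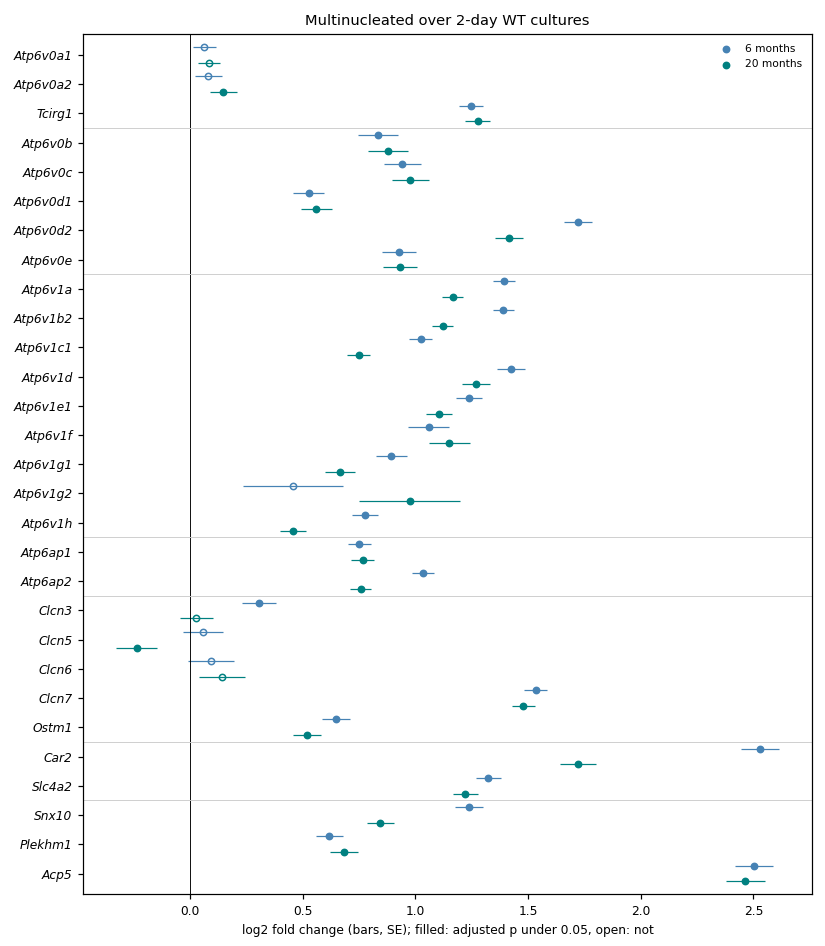
Points give the log2 fold change of multinucleated over 2-day WT cultures for each tested member at 6 and at 20 months, with bars for the SE and filled points for adjusted p under 0.05. Nearly all points lie right of 0, Car2 and Acp5 farthest, while Atp6v0a1, Clcn5 and Clcn6 lie close to it.

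The maturation effect itself differed between ages for 8 members, all with a smaller rise at 20 months, where 12.4% of all genes passed the same test of the difference. Car2 had the largest, -0.81 (SE 0.12) on the log2 scale, followed by Snx10 with -0.39 (SE 0.09) and Atp6v1h, the regulatory H subunit, with -0.32 (SE 0.08). Atp6v1h had 203, 221 and 210.1 CPM in multinucleated and 155, 152 and 155 CPM in 2-day libraries at 20 months, and 244, 267 and 264 against 157, 147 and 148 CPM at 6 months. The 2-day libraries differed little between ages for this gene, and the multinucleated ones were lower at 20 months. For Car2 it was the 2-day libraries that differed, with 32.3 CPM at 20 and 17.4 CPM at 6 months.

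Genes around the pump gave mixed counts, to be read against the 50.8% of all genes that passed at 6 months. Of 18 tested genes for V-ATPase assembly and regulation, 11 rose and 1 fell with maturation at 6 months, with a median log2 fold change of 0.31, and 11 rose and 1 fell at 20 months. The largest rises at 6 months were of Wdr7 (1.06) and Dmxl1 (1.00), components of the RAVE-like complex that assembles V1 onto V0, and the fall was of Tmem9 (-0.51). Among 24 tested genes for pH and bicarbonate transport outside the members, 13 rose and 6 fell at 6 months. Clic5, of the chloride intracellular channel family, rose by 3.92 at 6 and 3.74 at 20 months, and Slc37a2, a sugar-phosphate transporter of osteoclast lysosomes, by 1.55 and 1.48. Car12, a membrane carbonic anhydrase, fell by 2.27 and 2.32. Of 8 tested ruffled border trafficking genes Rab7 rose (0.44 at 6 months) and 3 fell, so 4 of 8 passed, about the share of all genes. Of 7 transcription factors of lysosomal and osteoclast genes 6 rose at 6 months, Tfeb by 0.38 and Nfatc1 by 0.57, and 5 at 20 months. All 9 resorption enzymes and attachment genes changed at 6 months, 8 of them upwards, with Ctsk at 2.52 and Mmp9 at 2.75.

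Genotype was compared in unprefixed multinucleated cultures of the same age. The 1-month groups also differed in the Y-linked Eif2s3y, with 18.4 to 18.9 CPM in KO and 66.6 to 71.2 CPM in WT. Genotype and whatever underlies this difference cannot be told apart at that age. Eif2s3y had 60.4 to 65.4 CPM in KO and 66.2 to 68.1 CPM in WT at 6 months. At 1 month 5 members were higher and 9 lower in KO, where 41.4% of all genes passed, and at 6 months 2 were higher and 19 lower, against 60.0% of all genes. The median log2 fold change of the tested members was -0.00 at 1 and -0.56 at 6 months, where all genes had -0.00 and -0.02. Summed subunit levels were 5217 ± 138 CPM in KO and 5453 ± 145 CPM in WT at 1 month, and 5483 ± 153 and 10519.7 ± 140.2 CPM at 6 months (SD, n = 3 each). All 10 osteoclast markers were lower and most macrophage markers higher in KO at both ages (8 of 10 at 1 and 9 of 10 at 6 months). The summed macrophage level was 26272 to 26873 CPM in KO and 11043 to 11164 CPM in WT at 6 months, and 44686 to 47684 CPM in KO and 27405 to 29559 CPM in WT at 1 month, and its part in the member changes was not tested. The T, NK and B markers and the erythroid markers each summed to at most 0.689 CPM in every library. The neutrophil markers summed to 73.9 to 78.0 CPM in KO and 23.1 to 31.5 CPM in WT at 1 month, and to 28.4 to 39.0 CPM in KO and 2.52 to 3.33 CPM in WT at 6 months. Of 7 neutrophil markers 2 could be tested, both higher in KO at both ages. S100a9 had no count in KO at either age, nor in WT at 6 months. The stromal markers summed to 564 to 639.5 CPM in KO and 484 to 523 CPM in WT at 1 month, with 4 of 8 higher, and to 819 to 888 CPM in KO and 1283 to 1669 CPM in WT at 6 months, with 6 of 8 lower. The part of these markers in the member changes was not tested.

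Car2 and Acp5 fell most. Car2 had 1.70, 1.30 and 1.45 CPM in KO libraries at 1 month, against 14.5, 15.6 and 17.4 CPM in WT libraries. At 6 months the values were 7.96, 8.53 and 10.4 CPM in KO, against 104, 97.9 and 99.9 CPM in WT. No KO value reached a WT value, with log2 fold changes of -3.40 (SE 0.14) at 1 and -3.48 (SE 0.09) at 6 months (edgeR adjusted p = 4.3e-19 and 5.6e-26). Acp5 had 95.2, 81.4 and 93.4 CPM in KO and 488, 495 and 467 CPM in WT libraries at 1 month, and 456, 489 and 535 CPM in KO at 6 months. Its log2 fold changes were -2.42 (SE 0.09) and -2.95 (SE 0.09). Slc4a2 had 92.5, 100.2 and 101 CPM in KO and 144, 167 and 173 CPM in WT libraries at 1 month, and 173, 169 and 178 CPM in KO at 6 months, all of them below the WT values of the same age. It fell by 0.72 and 1.39 on the log2 scale.

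In V0 the isoforms parted. Atp6v0d2 had 149, 126 and 131 CPM in KO and 232, 248 and 223 CPM in WT libraries at 1 month, and 236, 238 and 252 CPM in KO at 6 months. It fell at both ages without overlap, with log2 fold changes of -0.79 (SE 0.06) and -2.20 (SE 0.06). Atp6v0d1 had 253, 208 and 239 CPM in KO and 239, 204 and 207 CPM in WT libraries at 1 month, and 201, 215 and 219 CPM in KO at 6 months. Its log2 fold changes of 0.11 (SE 0.07) and 0.14 (SE 0.07) did not pass. Tcirg1 had 971, 1026 and 1041 CPM in KO and 1089, 1126 and 1096 CPM in WT libraries at 1 month, and 1112, 1128 and 1181 CPM in KO at 6 months. It did not pass at 1 month (-0.12 (SE 0.05), adjusted p = 0.061 by edgeR) and fell at 6 months (-0.60 (SE 0.05)). Atp6v0a1 went the other way, with 209, 205 and 215 CPM in KO and 153, 145 and 155 CPM in WT libraries at 1 month, and 179, 187 and 168 CPM in KO at 6 months, where WT had 110.4, 105 and 99.7 CPM. All KO values lay above all WT values of their age, with log2 fold changes of 0.47 (SE 0.05) and 0.77 (SE 0.05). Atp6v0a2 had 57.7, 63.4 and 71.2 CPM in KO and 60.9, 64.7 and 64.1 CPM in WT libraries at 1 month, 69.7, 70.7 and 71.7 CPM in KO at 6 months, and no call (0.02 and -0.01).

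Against unprefixed WT the V1 genes diverged by age. At 1 month 2 of 9 rose and 3 fell in KO, 55.6%, where 41.4% of all genes passed. At 6 months 8 of 9 fell, 88.9%, against 60.0% of all genes. Atp6v1e1, of the peripheral stalk, had 359.7, 293 and 321 CPM in KO and 279, 248 and 241 CPM in WT libraries at 1 month (log2 fold change 0.34 (SE 0.06)), and 231, 243 and 248 CPM in KO and 425, 434 and 432 CPM in WT at 6 months (-0.84 (SE 0.06)). Atp6v1f, of the central stalk, had 209.8, 165 and 201 CPM in KO and 186, 156 and 140.1 CPM in WT libraries at 1 month, with a log2 fold change of 0.26 (SE 0.09), and fell by 0.37 at 6 months. Against unprefixed WT both genes thus changed in opposite directions at the 2 ages, the 1-month groups of Atp6v1f overlapping. For Atp6v1e1 this depended on the 1-month WT, with means of 325 CPM in KO and 666 CPM in set D1. Atp6v1f averaged 192 CPM in 1-month KO and 156 CPM in set D1. At 6 months the largest V1 falls were of Atp6v1b2 (-1.58), Atp6v1d (-1.40) and Atp6v1a (-1.17). Atp6v0c, the ring proteolipid, was the other member higher in KO at 6 months, with 275, 281 and 249 CPM in KO and 209, 198 and 192 CPM in WT libraries (0.43 (SE 0.08)).

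Clcn7 had 372, 406 and 414 CPM in KO and 407, 477 and 432 CPM in WT libraries at 1 month, and 531, 528 and 527 CPM in KO at 6 months. It fell by 0.14 and 0.68, the 1-month groups overlapping. Ostm1 had 95.7, 88.9 and 77.3 CPM in KO and 83.8, 75.4 and 73.6 CPM in WT libraries at 1 month, and 73.7, 78.4 and 72.5 CPM in KO at 6 months. It rose by 0.17 at 1 month and fell by 0.45 at 6 months. Snx10 had 147, 128 and 126 CPM in KO and 181, 166 and 166 CPM in WT libraries at 1 month, and 169, 171 and 179 CPM in KO at 6 months, falling by 0.36 and 1.40. Plekhm1 had 176, 201 and 206 CPM in KO and 158, 175 and 179 CPM in WT libraries at 1 month (0.19 (SE 0.06), called), and 209, 203 and 216 CPM in KO at 6 months (0.00 (SE 0.06), not called). Several 1-month calls were small and rested on single libraries. Clcn7 lost its call without KO replicate 1 or WT replicate 3 (-0.10 and -0.08), Ostm1 without KO replicate 1 or 2 or WT replicate 3 or 4 (0.09 to 0.16), Plekhm1 without KO replicate 4 or WT replicate 1 (0.15 and 0.13), Atp6v1c1 without KO replicate 2 or 4 or WT replicate 1 (-0.14 to -0.13), and Atp6v1f without KO replicate 1 or 4 or WT replicate 3 or 4 (0.17 to 0.24). Fitted on the 2 groups alone, all 5 of these calls were lost and 9 members passed at 1 month, 2 higher and 7 lower, against 32.6% of all genes.

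The KO effect differed between 6 months and 1 month for 21 members, 18 of them more negative at 6 months and 3 more positive, where 48.6% of all genes passed the test of the difference. The largest differences were of Atp6v0d2 (-1.42 (SE 0.09)), Atp6v1b2 (-1.34 (SE 0.06)) and Atp6v1e1 (-1.18 (SE 0.08)). Car2, with -0.08 (SE 0.21), did not pass. These directions rested on the unprefixed 1-month WT. With set D1 as the 1-month WT, a setting added after the results were seen, 18 members passed, 17 more positive at 6 months and 1 more negative, where 42.0% of all genes passed. Of the 21 members 15 then had the opposite sign, among them Atp6v0d2 (0.98 (SE 0.09)), Atp6v1b2 (0.31 (SE 0.06)) and Atp6v1e1 (0.20 (SE 0.08)), 12 of the 15 past the threshold. The WT values entered in this difference sit on either side of the macrophage marker gap given above, so the age of the effect and that gap cannot be told apart. Nor can the age of the effect be told apart from the low Eif2s3y of the 1-month KO libraries given above.

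Lists fixed beside the members gave a mixed picture. Of 18 assembly and regulation genes 4 rose and 0 fell in KO at 1 month, 22.2%, where 41.4% of all genes passed. At 6 months 6 rose and 5 fell, about the share of all genes, 60.0%. Dmxl1 fell by 1.28 and Wdr7 by 0.78 at 6 months, while Lamtor4, a Ragulator subunit on lysosomes, rose by 1.00. Nfatc1, the master transcription factor of osteoclasts, fell by 1.59 at 1 and 0.97 at 6 months, and Tfe3 rose by 0.25 and 0.59. Ctsk, the main bone collagenase, fell by 2.94 and 3.20, whereas the general lysosomal protease Ctsd rose by 0.99 and 1.42. Hvcn1, a voltage-gated proton channel of phagocytes, rose by 1.08 and 0.92. Of 24 tested genes for pH and bicarbonate transport outside the members, 7 rose and 6 fell at 1 month. That is 54.2%, against 41.4% of all genes.

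**Figure D4:**
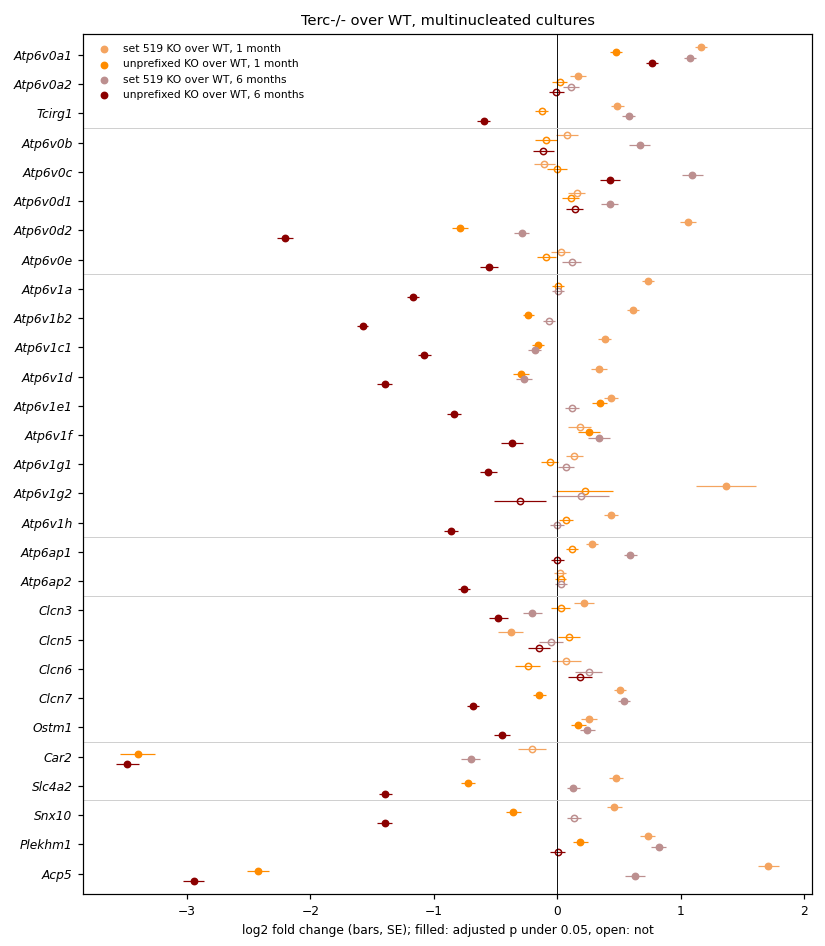
Points give the log2 fold change of KO over WT multinucleated cultures for each tested member, with bars for the SE and filled points for adjusted p under 0.05, for set 519 and unprefixed KO at 1 and 6 months. Set 519 and unprefixed KO share their WT libraries at each age; Atp6v0a1 is right of 0 in all 4 contrasts, while Acp5 and Tcirg1 lie on opposite sides of 0 in the 2 sets at 6 months.

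Set 519 KO libraries, set against the same WT libraries, moved otherwise. No WT library carried the 519 tag, so genotype and title set cannot be told apart in these contrasts. Depth was also lower in set 519, as given above. The Y-linked Eif2s3y differed too at 1 month, with 15.6 to 19.0 CPM in set 519 KO and 66.6 to 71.2 CPM in WT. At 1 month 19 members were higher and 1 lower, where 57.0% of all genes passed, and at 6 months 12 were higher and 5 lower, against 51.6%. Tcirg1 had 1732, 1442 and 1462 CPM in set 519 KO at 1 month and 2586, 2633 and 2508 CPM at 6 months, and was higher than WT at both ages (0.49 and 0.58). Atp6v0a1 had 340.4, 338 and 339 CPM at 1 month and 225, 216 and 221 CPM at 6 months, again higher than WT (1.17 and 1.07). Both a-subunit genes were above every unprefixed WT library of their age. Acp5 had 1958, 1378 and 1412 CPM at 1 month and 5974, 5959 and 5734 CPM at 6 months, and rose over WT by 1.71 and 0.63. Atp6v0d2 had 471, 507 and 486 CPM at 1 month and 903, 904 and 932 CPM at 6 months, with log2 fold changes of 1.06 and -0.29 over WT. Car2 had 16.5, 12.9 and 11.9 CPM at 1 month and 58.2, 60.9 and 66.1 CPM at 6 months; it did not pass at 1 month (-0.21 (SE 0.12)) and fell at 6 months (-0.70 (SE 0.08)). At 6 months Car2 and Atp6v0d2 were thus lower than WT in both KO sets, by 0.70 and 0.29 in set 519 and by 3.48 and 2.20 in the unprefixed set. Markers moved over these contrasts too. The stromal markers summed to 485 to 562 CPM in set 519 KO and 484 to 523 CPM in WT at 1 month, and to 468 to 502 CPM in set 519 KO and 1283 to 1669 CPM in WT at 6 months, with 7 of 8 lower. The macrophage markers summed to 27428 to 32326 CPM in set 519 KO and 27405 to 29559 CPM in WT at 1 month, and to 19959.5 to 20087 CPM in set 519 KO and 11043 to 11164 CPM in WT at 6 months, with 5 of 10 higher. Of the 10 osteoclast markers 6 were higher and 1 lower at 1 month, and 4 higher and 3 lower at 6 months. The part of these markers in the member changes was not tested.

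Among the other genes of set 519, Slc4a2 had 238, 216 and 219.5 CPM at 1 month and 489, 504 and 502 CPM at 6 months, rising over WT by 0.48 and 0.13. The 6-month call of Slc4a2 was lost without WT replicate 2 or 4 or KO replicate 4 (0.12 to 0.13), with RLE size factors (0.12), with upper quartile scaling (0.10) and with no filter (0.09). Clcn7 had 659.7, 602 and 614 CPM at 1 month and 1234, 1240.3 and 1225 CPM at 6 months, rising by 0.51 and 0.54. Ostm1 had 94.0, 95.0 and 87.7 CPM and 123, 119.7 and 120.0 CPM at those ages, rising by 0.26 and 0.24, so the exchanger and its partner were both higher. Snx10 had 238, 238 and 232 CPM at 1 month, a rise of 0.46, and 499.7, 490.4 and 511 CPM at 6 months, which did not pass (0.14). Plekhm1 had 291, 281 and 279 CPM and 361, 371 and 377 CPM, rising by 0.73 and 0.82. Atp6v0d1 had 275, 224 and 226 CPM at 1 month, which did not pass (0.16), and 256, 252 and 263 CPM at 6 months (0.42, called). Atp6v0a2 had 68.0, 69.8 and 77.1 CPM and 77.4, 78.5 and 74.8 CPM, with 0.17 at 1 month, a call lost without WT replicate 1 or KO replicate 4 (0.14 and 0.12), with no filter (0.15) and in the 2 groups alone (0.20), and 0.11 at 6 months, not called. Atp6v0c had 432, 458 and 391 CPM at 6 months and the largest rise there, 1.10 (SE 0.08). Atp6v1d had 390.3, 404 and 404 CPM in set 519 KO and 473, 498 and 472 CPM in WT at 6 months, and fell (-0.27 (SE 0.06)). Clcn5 was the member lower at 1 month, with 27.4, 37.6 and 34.4 CPM in set 519 KO and 40.2, 44.9 and 46.0 CPM in WT (-0.38 (SE 0.10)).

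The 2 KO sets were compared directly. Set 519 was higher in 19 members and lower in 1 at 1 month, where 50.0% of all genes passed, and higher in 25 and lower in 0 at 6 months, against 49.1%. Acp5 was 4.13 and 3.58 higher on the log2 scale, Car2 3.19 and 2.78, and Atp6v0d2 1.85 and 1.92. Depth was also lower in set 519, and all 10 osteoclast markers were higher in it at both ages; the part of either in the member differences was not tested.

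Set D1 WT stood at the top of the range for many members. Acp5 had 8687, 8111 and 8738 CPM, Car2 184, 181 and 199 CPM and Atp6v0d2 1206, 1232 and 1252 CPM in its 3 libraries. Slc4a2 had 481, 468 and 508 CPM, Snx10 564, 608 and 616 CPM, Clcn7 1201, 1162 and 1238 CPM and Tcirg1 2099, 1977 and 2179 CPM. Against unprefixed WT of the same age 22 members were higher and 1 lower, where 74.5% of all genes passed, with Acp5 at 4.14, Car2 at 3.56 and Atp6v0a1 at -0.34, the lower one. Ostm1 had 131, 142 and 133 CPM, Plekhm1 187, 173 and 201 CPM, Atp6v0a1 122, 117 and 118 CPM, Atp6v0a2 62.2, 61.8 and 61.5 CPM and Atp6v0d1 208, 189 and 205 CPM in set D1. Of these, Ostm1 was higher (0.80) than in unprefixed WT, and Plekhm1 (0.13), Atp6v0a2 (-0.03) and Atp6v0d1 (-0.11) did not pass. The stromal markers summed to 3491 to 3793 CPM in set D1 and 484 to 523 CPM in unprefixed WT, with 7 of 8 higher. The osteoclast markers summed to 35193 to 36994 CPM in set D1 and 1831 to 1986 CPM in unprefixed WT, with 8 of 10 higher. The part of either in the member differences was not tested.

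Unprefixed 1-month KO against set D1 gave 3 higher and 23 lower members, where 73.7% of all genes passed; sex-linked transcripts differed as given above. The log2 fold change was -6.96 for Car2, -6.56 for Acp5 and -3.18 for Atp6v0d2, while Atp6v0a1 (0.82), Atp6v1f (0.30) and Atp6v0d1 (0.22) were the 3 higher ones. Atp6v0a1 was therefore called higher in KO in all 5 contrasts of KO with WT, which share libraries among them.

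Age was compared within genotype and title set. In unprefixed KO, 6 months against 1 month, 12 members were higher and 4 lower, where 37.5% of all genes passed. Car2 rose by 2.58, Acp5 by 2.45 and Atp6v0d2 by 0.84, and Atp6v1e1 (-0.43), Atp6v1f (-0.41) and Atp6v0a1 (-0.23) fell furthest. In set 519 KO 23 members were higher and 1 lower at 6 months, against 32.5% of all genes. Car2 (2.16), Acp5 (1.90) and Slc4a2 (1.15) rose furthest there, and Atp6v0a1 was the 1 to fall (-0.62). Car2 and Acp5 were thus higher and Atp6v0a1 lower at 6 months in both KO sets. The ages also differed in the Y-linked Eif2s3y. It had 18.4 to 18.9 CPM in unprefixed and 15.6 to 19.0 CPM in set 519 KO at 1 month. At 6 months it had 60.4 to 65.4 and 64.3 to 66.6 CPM. Age and whatever underlies this difference cannot be told apart in either set. All 10 osteoclast markers were also higher at 6 months in both KO sets, and 9 of 10 macrophage markers were lower in unprefixed KO, where they summed to 26272 to 26873 CPM at 6 months and 44686 to 47684 CPM at 1 month. The part of these markers in the age differences was not tested.

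In WT, multinucleated cultures at 6 months against unprefixed 1 month had 22 members higher and 3 lower, where 63.6% of all genes passed. Acp5 rose by 2.98, Car2 by 2.66 and Atp6v0d2 by 2.25, and Atp6v0a1 (-0.52), Atp6v0c (-0.41) and Atp6v0d1 (-0.18) fell. With set D1 as the 1-month WT the direction was mostly the other: 4 members were higher and 17 lower at 6 months, against 57.8% of all genes. There Acp5 was -1.16, Car2 -0.90 and Atp6v1e1 -0.63, and the higher ones included Atp6v1f (0.26), Atp6v0a2 (0.20) and Atp6v0e (0.20). The age difference of Acp5 and Car2 in WT therefore turned sign with the 1-month set used. Osteoclast markers summed to 16391 to 17837 CPM at 6 months, 1831 to 1986 CPM in unprefixed 1-month WT and 35193 to 36994 CPM in set D1. Macrophage markers summed to 11043 to 11164, 27405 to 29559 and 19090.5 to 20105 CPM in the same order, and stromal markers to 1283 to 1669, 484 to 523 and 3491 to 3793 CPM. Set D1 also differed in sex-linked transcripts, as given above. The part of these in the age differences was not tested.

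Between 20 and 6 months few members passed. In multinucleated WT 0 were higher and 3 lower, where 14.3% of all genes passed; fitted on the 2 groups alone 7 passed, against 24.1% of all genes. Atp6v1h fell with 203, 221 and 210.1 CPM at 20 and 244, 267 and 264 CPM at 6 months (-0.29 (SE 0.06)). Atp6v1c1 had 479, 498 and 487 CPM at 20 and 522, 546 and 564 CPM at 6 months (-0.16 (SE 0.05)), and Atp6v1b2 had 2110.2, 2127 and 2126 and 2292, 2362 and 2375 CPM (-0.14 (SE 0.05)). The 3 calls among 29 tested members were below the share of all genes, so they are read as single genes only. Those of Atp6v1c1 and Atp6v1b2 were lost without 6-month replicate 3 or 4 or 20-month replicate 1 or 4 (-0.16 to -0.13), leaving 1 call. The call of Atp6v1b2 was also lost without 20-month replicate 2 (-0.14). In 2-day WT 7 members were higher and 0 lower at 20 months, against 18.8% of all genes, with Car2 (0.89), Snx10 (0.34) and Atp6v0d2 (0.31) highest; in the 2 groups alone 11 passed, against 26.9% of all genes. The stromal markers summed to 2538 to 2940.5 CPM at 20 and 1283 to 1669 CPM at 6 months in multinucleated WT, with 5 of 8 higher and 1 lower, and to 3008 to 3199 CPM at 20 and 3620.5 to 3971 CPM at 6 months in 2-day WT, with 5 of 8 lower. In 2-day WT 5 of 10 osteoclast markers were higher at 20 months. The part of these markers in the member differences was not tested.

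Isoform use was read within libraries, on levels per length (CPM per kb of exon), since 2 genes differ in length. Tcirg1 made up 93.5% ± 0.153 of the summed a-subunit level in multinucleated and 86.5% ± 0.105 in 2-day WT cultures at 6 months, and 93.4% ± 0.0925 and 86.3% ± 0.510 at 20 months (SD, n = 3 each). In the unprefixed set it was 84.5% ± 0.355 in KO and 88.4% ± 0.396 in WT at 1 month, and 87.1% ± 0.708 in KO at 6 months. Tcirg1 was thus the main a isoform in all 10 groups, 386 ± 18.0 CPM per kb in multinucleated WT at 6 months, where Atp6v0a1 had 16.01 ± 0.818 and Atp6v0a2 10.6 ± 0.387 CPM per kb. For the d subunit the main isoform per length differed between groups. Atp6v0d2 made up 79.4% ± 0.275 of the d level in multinucleated and 62.6% ± 2.33 in 2-day WT at 6 months, and 80.3% ± 0.244 and 69.3% ± 1.53 at 20 months. It made up 27.7% ± 1.07 in unprefixed KO and 41.7% ± 2.76 in unprefixed WT at 1 month, and 43.1% ± 0.707 in unprefixed KO at 6 months. Per length Atp6v0d1 was thus the more abundant in those groups. By CPM, without length, it was so only in unprefixed 1-month KO, with 233 against 135 CPM. Atp6v0d2 had 234 and Atp6v0d1 217 CPM in unprefixed 1-month WT, and 242 and 211 CPM in unprefixed 6-month KO. Set 519 KO had 57.2% ± 3.63 at 1 month and 70.1% ± 0.188 at 6 months, and set D1 WT 80.2% ± 0.935.

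4 isoform ratios were tested in 4 contrasts, 16 tests in all, each by an exact two-sided permutation of 12 libraries within 2 strata, in which the smallest possible p is 0.005. With maturation the log2 ratio of Tcirg1 to Atp6v0a1 was 1.19 higher, of Tcirg1 to Atp6v0a2 1.15 higher and of Atp6v0d2 to Atp6v0d1 1.03 higher, in 6 of 6 multinucleated libraries and each with an adjusted exact p of 0.008. In unprefixed KO the same ratios were lower, by mean log2 differences of -0.98, -0.36 and -1.62, also with an adjusted exact p of 0.008. The ages differed in size: Tcirg1 to Atp6v0a1 was -0.60 at 1 and -1.36 at 6 months, Tcirg1 to Atp6v0a2 -0.14 and -0.59, and Atp6v0d2 to Atp6v0d1 -0.90 and -2.35. With set 519 KO in place of the unprefixed KO, the Tcirg1 to Atp6v0a2 ratio turned to 0.38 and the Atp6v0d2 to Atp6v0d1 ratio to 0.10, the second without passing. At 20 against 6 months Atp6v0d2 to Atp6v0d1 was 0.26 higher on average (adjusted exact p = 0.008), with 0.09 in multinucleated and 0.43 in 2-day cultures, and the 2 a-subunit ratios did not pass. Set 519 against unprefixed KO had 1.72 for Atp6v0d2 to Atp6v0d1 and 0.75 for Tcirg1 to Atp6v0a2 (adjusted exact p = 0.008 each), and 0.39 for Tcirg1 to Atp6v0a1, which did not pass (adjusted exact p = 0.12) and had opposite signs at the 2 ages, -0.09 at 1 and 0.87 at 6 months. Atp6v0e2 to Atp6v0e passed with maturation only (-1.39, adjusted exact p = 0.008), on no more than 12 counts of Atp6v0e2 in a library.

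**Figure D5:**
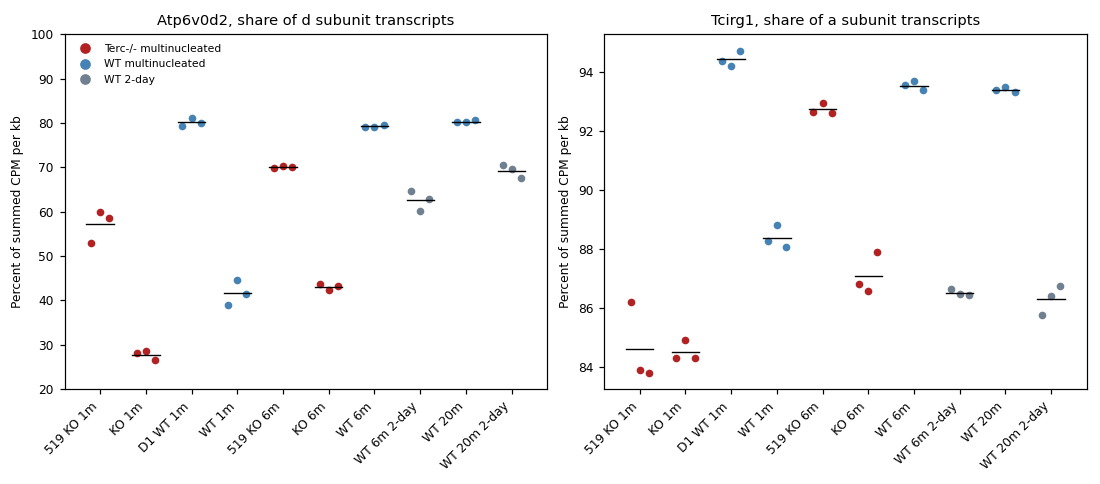
Points are libraries and bars group means (m, months); the left axis is the Atp6v0d2 share of d-subunit CPM per kb in percent and the right one the Tcirg1 share of a-subunit CPM per kb in percent, neither axis starting at 0. The d2 share is below that of d1 in unprefixed 1-month KO, unprefixed 1-month WT and unprefixed 6-month KO, and above that of d1 in the other 7 groups.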

How the data were processed

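Gene-level read counts of 30 libraries were analysed as deposited. Per the file headers, the authors made the deposited counts with featureCounts 1.6.0 over exons of the Ensembl 88 annotation of GRCm38, in paired mode and with no strand option recorded; the submitters' processing notes name HTSeq and mm10. Without strand, reads from genes that overlap on opposite strands cannot be told apart. The members, lists and tests were chosen with earlier results of these data known.

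Counts were filtered with filterByExpr, scaled by TMM and fitted with edgeR 4.0.16 (R 4.3.3), with 1 coefficient per group over all 30 libraries. The spread of each gene was estimated over all groups together, with a common biological coefficient of variation of 0.0610. A p-value therefore does not measure the spread of the 2 compared groups alone. Quasi-likelihood tests were made for 16 comparisons and for 2 differences between effects, with Benjamini-Hochberg adjustment over 15310 genes and a threshold of 0.05. The script was tested on simulated data. CPM are TMM-scaled, and CPM per kb are divided by exon length in units of 1000 bases. Ratios used a pseudocount of 1 count. Replicates were not the same library counted again: a chi-square test of each pair, over its degrees of freedom, gave 1.28 to 21.8. Pairs of set 519 KO at 6 months had 1.28 to 1.76, close to what count sampling alone gives. The test cannot tell separate cultures from repeat libraries of one culture. The highest values were of unprefixed 1-month groups, up to 21.8 in KO and 20.7 in WT. Same-numbered libraries mostly did not deviate together (r of -0.15 to 0.26), so numbers were not used as pairs. The r of 0.26 was of replicate 1 of unprefixed KO and WT at 1 month. Differently numbered pairs of those 2 groups had -0.27 to 0.17.

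Values in every library were given for 12 genes set by name and, in each comparison, for the 3 called members with the largest absolute log2 fold change in each direction with at least 5 CPM in a compared group; where a gene recurs, its values stand where it was first described. Alternatives were other scalings, DESeq2 1.42.0, no filter, only the groups compared, a replicate block and leaving out each library, and, added after the results were seen, set D1 as the 1-month WT in the difference between KO effects.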

Additional observations from a re-analysis of the deposited data

Results flagged for a closer look

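The effect of Terc loss differed between 6 months and 1 month in 21 members by edgeR's test of the difference itself (adjusted p under 0.05), which 48.6% of all genes passed. With set D1 in place of unprefixed WT at 1 month, 15 of the 21 had the opposite sign. Values are the log2 fold change of KO over WT at 6 months minus that at 1 month. In V1 they were Atp6v1b2 -1.34, Atp6v1e1 -1.18, Atp6v1a -1.17, Atp6v1d -1.11, Atp6v1h -0.93, Atp6v1c1 -0.92, Atp6v1f -0.63 and Atp6v1g1 -0.50. In V0 they were Atp6v0d2 -1.42, Tcirg1 -0.47 and Atp6v0e -0.46 among the negative ones and Atp6v0a1 0.29 and Atp6v0c 0.43 among the positive ones. Of the remaining genes, Snx10 -1.04, Atp6ap2 -0.78, Slc4a2 -0.67, Ostm1 -0.62, Clcn7 -0.54, Acp5 -0.52 and Clcn3 -0.50 were negative and Clcn6 0.43 was positive.

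The effect of maturation differed between 20 and 6 months in 8 members by the same test, which 12.4% of all genes passed. The log2 fold change of multinucleated over 2-day cultures at 20 months minus that at 6 months was Car2 -0.81, Snx10 -0.39, Atp6v1h -0.32, Atp6v0d2 -0.31, Atp6ap2 -0.28, Atp6v1c1 -0.28, Atp6v1b2 -0.27 and Atp6v1a -0.23. All 8 were negative. The 2-day libraries of Car2 at 20 months were all above those at 6 months.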

How the results depend on the processing

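Most results kept their direction and side of the threshold. Of 109 member counts under other settings, 104 stayed within 1.5 times the reported count. Fitted on the groups compared alone, 9 members in place of 14 passed for KO against WT at 1 month, 7 in place of 3 for multinucleated WT at 20 against 6 months, and 11 in place of 7 for 2-day WT at 20 against 6 months; that fit takes its spread from fewer libraries. For multinucleated WT at 20 against 6 months 1 member passed with upper quartile scaling and 1 with no filter, and 1 to 3 when each library was left out in turn. The cause was not tested. With set D1 as the 1-month WT the difference between KO effects at 6 and 1 month was turned in sign for 15 genes: Atp6ap2 0.30, Atp6v0d2 0.98, Atp6v1g1 0.10, Slc4a2 0.92, Snx10 0.76, Atp6v1e1 0.20, Ostm1 0.18, Atp6v1b2 0.31, Acp5 3.62, Atp6v0a1 -0.051, Atp6v1d 0.42, Atp6v1c1 0.17, Atp6v1a 0.50, Clcn7 0.91 and Tcirg1 0.45. No other gene called in a comparison changed sign under any setting, while 56 calls were lost and 74 gained with other settings, and 100 lost and 38 gained with a library left out. With set 519 KO in place of unprefixed KO, the log2 ratio difference of Tcirg1 to Atp6v0a2 was 0.38, against -0.36 with unprefixed KO, and that of Atp6v0d2 to Atp6v0d1 was 0.10, against -1.62. Leaving out single libraries, the old age difference of Tcirg1 to Atp6v0a2 was -0.085 to -0.042 and the title set difference of Atp6v0e2 to Atp6v0e -1.36 to -0.61; both passed in 1 case. Upper quartile scaling moved the median of all genes to 0.11 for set 519 KO against WT at 1 month and 0.12 for set D1 against unprefixed WT. With the replicate block, 14 members passed for KO against WT at 1 month and 21 at 6 months, as without it, 17 in place of 16 for KO at 6 against 1 month and 2 in place of 3 for WT at 20 against 6 months. Low counts limit Atp6v0a4, Atp6v0e2, Atp6v1b1 and Atp6v1c2 most, and the set 519 libraries are the shallowest.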

Other observations

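Acid and ion transport genes outside the members also differed between the KO sets. Clic5, of the chloride intracellular channel family, had a log2 fold change over WT of 3.67 in set 519 KO at 1 month and -3.90 in unprefixed KO at 6 months, both called, and 0.48 and 0.20 in the other contrasts of KO with unprefixed WT, which were not. Slc4a3, an anion exchanger of the family of Slc4a2, rose by 2.04 in set 519 KO at 1 month and fell by 1.23 in unprefixed KO at 6 months. Hvcn1 and the lysosomal channel gene Mcoln1 were called higher in KO in all 4 contrasts with unprefixed WT, Hvcn1 by 0.92 to 1.34 and Mcoln1 by 0.35 to 0.88. The Y-linked Eif2s3y had 15.6 to 19.0 CPM in the 6 libraries of 1-month KO, and 49.9 to 71.4 CPM in the other libraries outside set D1.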
